A study of Mus musculus with 24 samples.

Results

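The lysosome genes described here were 44 genes for membrane proteins, enzymes, transporters, regulators and proton pump subunits of the lysosome, measured in epididymal white fat of mice. They were taken from a fixed list of symbols, and each gene stood for the probe set with the highest mean over all 24 arrays; all 44 were measured, each by 1 probe set, among 19938 named genes. The mice were male wildtype C57Bl/6, 11 weeks old when feeding began, and were given a diet with 45% of its energy as fat for 11 weeks. The fat was lard or menhaden fish oil, and the mice were conventional, meaning that they carried bacteria, or germ-free. That made 4 groups of 6 mice, with 1 array for each mouse, and all mice fasted for 4 h before tissue was taken. Whether conventional and germ-free mice came from the same colony is not given in the sources used here, so bacterial status and origin cannot be told apart.

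Lysosomes are acidic organelles that take apart proteins, glycans, lipids and nucleic acids delivered by endocytosis, phagocytosis and autophagy. Their hydrolases work at low pH, which a proton pump, the vacuolar ATPase, maintains, and many of their genes share a promoter sequence, the CLEAR element, that is bound by the transcription factor TFEB and its relatives. In fat of obese animals lysosomes are known above all from macrophages, which gather around dying adipocytes and digest their lipid.

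Values are log2 expression values, so a difference of 1 is a doubling of signal, and levels were compared between mice and never between genes. The medians of the arrays lay between 7.09 and 7.20. A change is a difference between group means given ± its standard error (SE) from limma, with 6 mice in each group, and a gene was called higher or lower where limma's adjusted p over all 19938 genes was under 0.05. Mature adipocyte markers were high in every mouse, with a list mean from 11.99 to 12.82. Lard-fed conventional mice 5 and 6 stood apart from the other 4 mice of their group, and 3 lard-fed germ-free mice, numbers 2, 4 and 5, held intestinal epithelium transcripts, with list means of 6.39, 9.29 and 6.51. Liver transcripts were higher in fish oil-fed germ-free mice, at 7.62 to 8.80, than in lard-fed germ-free mice, at 6.28 to 7.07. Counts from fits without these mice, and from a fit with the mean of liver transcripts as covariate, are given beside the comparisons they touch.

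With lard instead of fish oil, most lysosome genes were higher in fat, in conventional and in germ-free mice alike. In conventional mice 35 of the 44 genes were called, against 31% of all genes: 34 rose and 1 fell, where 15.4% and 15.6% of all genes did. In germ-free mice 39 were called, against 47.5% of all genes: 38 rose and 1 fell, where 20.4% and 27.1% of all genes did. The median change of the 44 genes was 0.49 in conventional and 0.50 in germ-free mice, beside -0.04 and -0.08 for all genes. By gene, 32 rose in both, Cd63 and Ctsk passed the threshold in conventional mice only, and Lamp2, Scarb2, Gaa, Smpd1, Galc and Mcoln1 in germ-free mice only. Acp5 fell in both, and Lamp1, Tfec and Atp6v1h passed in neither. The tissue was measured in bulk, so a change in the number of cells of a type and a change in RNA per cell cannot be told apart.

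**Figure D1:**
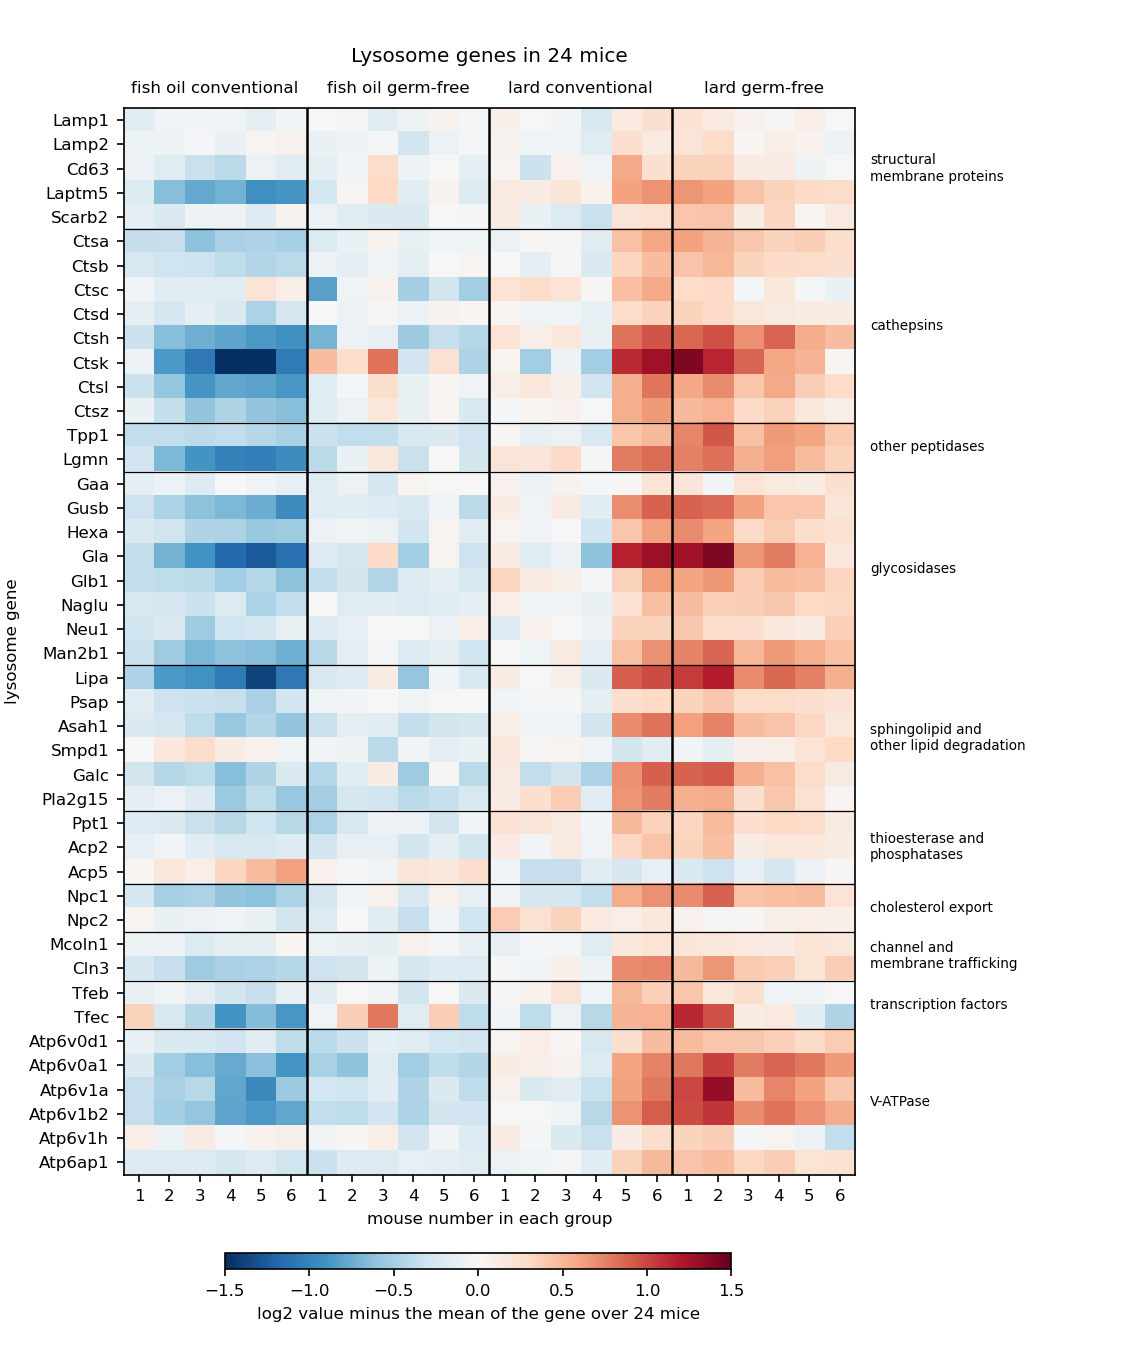
Heat map of the 44 lysosome genes (rows, grouped by role) in 24 mice (columns, numbered within the 4 groups). Colour is the log2 value minus the gene's mean over the 24 mice, with the scale ending at 1.5 in both directions; most rows run from blue in fish oil-fed conventional mice to red in lard-fed germ-free mice, and lard-fed conventional mice 5 and 6 are the reddest of their group in most rows.

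The mean of the 44 genes in each mouse shows the order of the groups. It was 10.53 to 10.82 (median 10.59) in fish oil-fed conventional mice and 10.77 to 10.98 (median 10.85) in fish oil-fed germ-free mice. It was 10.82 to 11.56 (median 11.05) in lard-fed conventional mice and 11.20 to 11.58 (median 11.35) in lard-fed germ-free mice. All 6 lard-fed germ-free mice lay above all 12 fish oil-fed mice, and the lard-fed conventional mice reached from within the fish oil range to near the top of the lard-fed germ-free range. By gene, 38 of the 44 had their highest mean in lard-fed germ-free mice, against 23.9% of all genes. For 32 genes the 4 group means followed the same order as the list mean, against 9.53% of all genes.

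The spread among mice was largest in lard-fed conventional mice. Of the 44 genes, 37 had their largest standard deviation (SD) there, against 39.5% of all genes, and the median SD of the 44 was 0.29 there, 0.16 in lard-fed germ-free, 0.13 in fish oil-fed conventional and 0.11 in fish oil-fed germ-free mice. Mice 5 and 6 were the highest of that group for 39 of the 44 genes, against 16.1% of all genes. In lard-fed germ-free mice, mice 1 and 2 were the highest for 34 genes, against 13.6% of all genes. Without lard-fed conventional mice 5 and 6, 29 of the 44 genes rose and 1 fell with lard in conventional mice, and their median change was 0.29 in place of 0.49. Over all genes 2425 were then higher and 2017 lower, against 3076 and 3102 with all mice, and the median change was -0.02. All 35 called lysosome genes kept their direction, and 18 of the 35 changes moved by more than 1.5 times. The calls of 5 of the 18 were lost: Cd63 (0.14 without the 2 mice), Ctsc (0.22), Npc1 (0.26), Tfeb (0.22) and Atp6ap1 (0.14). The other 13 still passed, at 0.88 for Ctsk, 0.74 for Gla, 0.52 for Atp6v1b2, 0.43 for Atp6v1a, 0.40 for Cln3, 0.35 for Hexa, 0.33 for Asah1, 0.30 for Tpp1, 0.25 for Ctsb, 0.23 for Neu1, 0.21 for Acp2, 0.21 for Atp6v0d1 and 0.20 for Ctsd.

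The CLEAR element contains the letters CACGTG, and the promoters of the 44 genes were searched for them. RefSeq promoters (GRCm38.p6), 300 bases each with 250 before and 50 after the gene's start, were given for 38 of the 44 genes. The letters CACGTG occurred in 13 of the 38 (34.2%), against 1483 of 15614 tested genes with a promoter (9.5%). The longer TCACGTGA, which holds CACGTG, occurred in 7 of the 38 (18.4%): Atp6v0d1, Atp6v1a, Cln3, Ctsa, Ctsd, Gla and Mcoln1, against 238 of the 15614 (1.52%). Both motifs read the same on either strand. A match is a description of the sequence and no measure of binding, and its part in the diet result was not tested. Of the genes with CACGTG, Lamp1 passed in neither diet comparison, and Gaa and Mcoln1 passed in germ-free mice only. The others with CACGTG rose in both, as did 32 of all 44 genes. The stretches below show the longer motif in 5 of the 7 genes; the capitals mark TCACGTGA, and each is written 5′ to 3′ on the strand of its gene.
Atp6v1a (chr16:44139360-44139415, minus strand, motif from 132 bases before the start): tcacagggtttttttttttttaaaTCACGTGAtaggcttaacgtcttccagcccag
Cln3 (chr7:126583327-126583382, minus strand, motif from 122 bases before the start): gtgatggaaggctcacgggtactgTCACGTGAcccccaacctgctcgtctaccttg
Ctsd (chr7:142387895-142387950, minus strand, motif from 99 bases before the start): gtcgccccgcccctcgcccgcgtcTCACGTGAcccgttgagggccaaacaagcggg
Gla (chrX:134601169-134601224, minus strand, motif from 195 bases before the start): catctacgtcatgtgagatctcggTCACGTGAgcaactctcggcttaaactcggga
Mcoln1 (chr8:3500449-3500504, plus strand, motif from 46 bases before the start): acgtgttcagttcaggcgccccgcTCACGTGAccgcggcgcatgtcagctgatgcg

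Lamp1 is shown because its promoter held 4 matches to CACGTG, in capitals, within 73 bases.
Lamp1 (chr8:13159088-13159160, plus strand): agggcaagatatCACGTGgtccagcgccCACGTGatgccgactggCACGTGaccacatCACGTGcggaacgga

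Among the structural membrane proteins, Laptm5 had the largest change. Lamp1 and Lamp2 are the most abundant glycoproteins of the lysosomal membrane. Lamp1 ranged from 12.28 to 12.40 (median 12.38) in fish oil-fed conventional mice, 12.20 to 12.68 (median 12.48) in lard-fed conventional, 12.28 to 12.49 (median 12.41) in fish oil-fed germ-free and 12.45 to 12.66 (median 12.52) in lard-fed germ-free mice. These ranges overlapped, and the changes with lard were 0.11 ± 0.06 (adjusted p = 0.191) and 0.14 ± 0.06 (adjusted p = 0.077). Lamp2 changed by 0.05 ± 0.07 in conventional mice (adjusted p = 0.622) and rose by 0.19 ± 0.07 in germ-free mice (adjusted p = 0.0268). Laptm5, a lysosomal membrane protein of blood-derived cells, ranged from 11.48 to 12.20 (median 11.67) in fish oil-fed conventional mice, 12.45 to 13.08 (median 12.56) in lard-fed conventional, 12.14 to 12.70 (median 12.34) in fish oil-fed germ-free and 12.68 to 13.07 (median 12.78) in lard-fed germ-free mice. The conventional groups did not overlap, and the germ-free groups overlapped narrowly, at 12.68 against 12.70. Laptm5 rose 1.97-fold (0.98 ± 0.13, adjusted p = 2.91e-06) in conventional and 1.39-fold (0.47 ± 0.13, adjusted p = 0.00385) in germ-free mice, where the change was 0.17 ± 0.21 (adjusted p = 0.547) with the liver covariate. The tetraspanin Cd63 rose by 0.30 ± 0.11 in conventional mice (adjusted p = 0.04), and Scarb2, which carries glucocerebrosidase to the lysosome, rose by 0.36 ± 0.09 in germ-free mice (adjusted p = 0.00228).

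All 8 cathepsins rose with lard in conventional mice, and 7 of the 8 in germ-free mice. Cathepsins are the peptidases that digest protein in the lysosome. Ctsk, which cuts collagen, ranged from 8.61 to 10.55 (median 9.57) in fish oil-fed conventional mice, 10.11 to 11.91 (median 10.62) in lard-fed conventional, 10.17 to 11.45 (median 10.88) in fish oil-fed germ-free and 10.67 to 12.04 (median 11.37) in lard-fed germ-free mice. Both diet pairs overlapped. Its rise in conventional mice, 2.58-fold, was the largest of the 44 genes by value (1.37 ± 0.33, adjusted p = 0.00224), and without lard-fed mice 5 and 6 it was 0.88 ± 0.30 (adjusted p = 0.0389). In germ-free mice the change was 0.59 ± 0.33 (adjusted p = 0.137).

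Ctsh, a cathepsin that trims peptides from their amino end, ranged from 9.46 to 10.05 (median 9.62) in fish oil-fed conventional mice, 10.26 to 11.32 (median 10.56) in lard-fed conventional, 9.68 to 10.29 (median 9.99) in fish oil-fed germ-free and 10.84 to 11.34 (median 11.15) in lard-fed germ-free mice. Neither diet pair overlapped, and the gene rose 2.08-fold (1.06 ± 0.15, adjusted p = 1.06e-05) and 2.15-fold (1.10 ± 0.15, adjusted p = 4.66e-06). Ctsl, a cathepsin with broad specificity, rose by 0.94 ± 0.13 in conventional mice (adjusted p = 8.63e-06) and by 0.50 ± 0.13 in germ-free mice (adjusted p = 0.00396). Ctsa rose by 0.58 and 0.49, Ctsb by 0.42 and 0.41 and Ctsd by 0.32 and 0.21, and for all 3 the lard-fed mice lay above the fish oil-fed mice within each status. Ctsz rose by 0.66 and 0.39, and Ctsc, which activates granule proteases of immune cells, by 0.33 and 0.45.

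The other peptidases, Tpp1 and Lgmn, rose in both kinds of mice. Tpp1 removes tripeptides and is the enzyme lost in a childhood neurodegenerative disease. It ranged from 10.40 to 10.52 (median 10.50) in fish oil-fed conventional mice, 10.65 to 11.37 (median 10.85) in lard-fed conventional, 10.51 to 10.67 (median 10.57) in fish oil-fed germ-free and 11.28 to 11.81 (median 11.50) in lard-fed germ-free mice, with no overlap between diets. It rose 1.40-fold (0.48 ± 0.10, adjusted p = 0.000652) in conventional and 1.89-fold (0.92 ± 0.10, adjusted p = 3.99e-07) in germ-free mice. Lgmn, the asparaginyl endopeptidase that also processes cathepsins, rose 2.28-fold (1.19 ± 0.14, adjusted p = 1.34e-06) and 1.69-fold (0.76 ± 0.14, adjusted p = 0.000165), again with no overlap between diets.

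**Figure D2:**
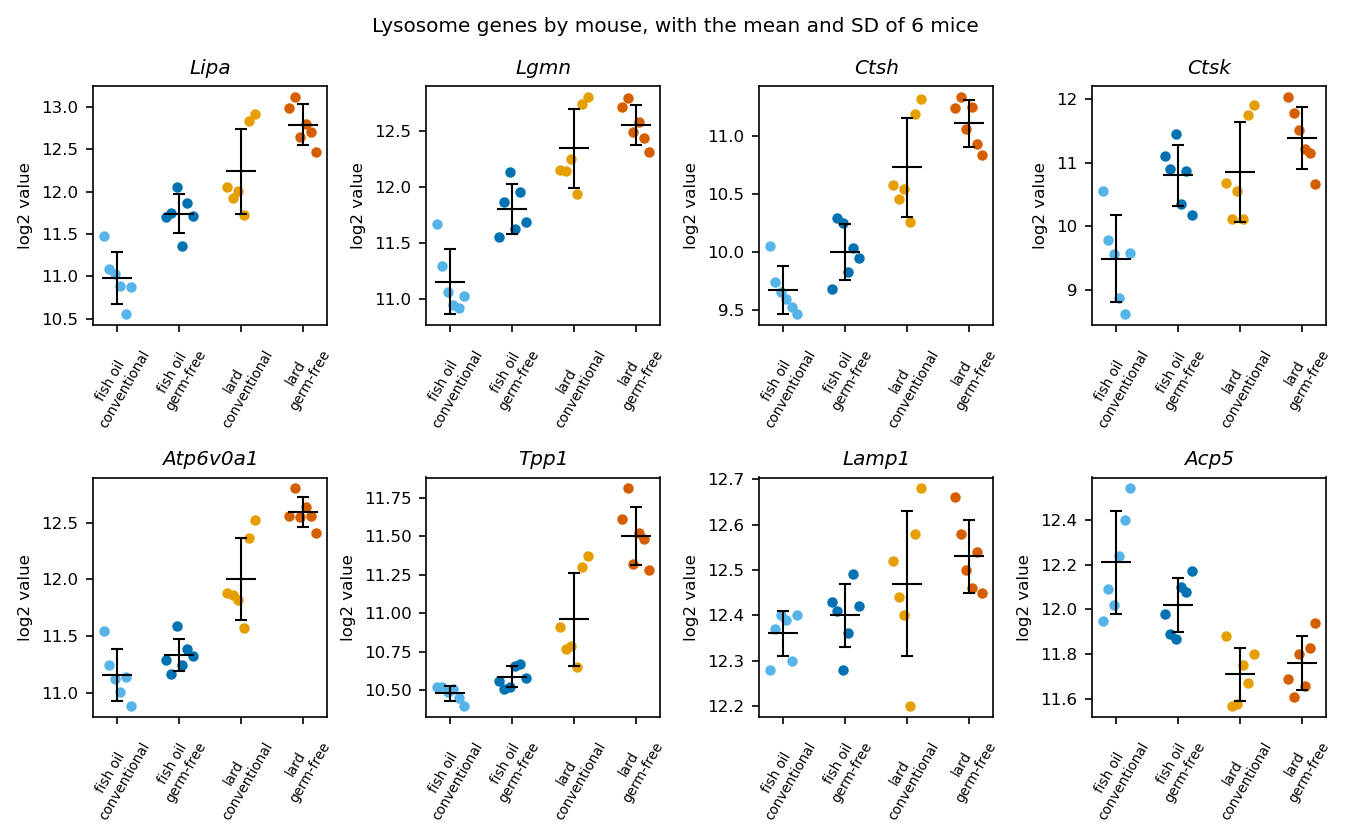
Log2 values of 8 lysosome genes in each of 24 mice, by group, with the mean and SD of 6 mice. Lipa, Lgmn, Ctsh, Atp6v0a1 and Tpp1 show no overlap between the diets within either status, Ctsk overlaps in both, Lamp1 overlaps in both, and Acp5 runs the other way.

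Of the 8 glycosidases, which remove sugars from glycoproteins, glycolipids and glycosaminoglycans, 7 rose in conventional and all 8 in germ-free mice. Gla, which cuts terminal galactose from glycolipids, ranged from 8.21 to 9.12 (median 8.46) in fish oil-fed conventional mice, 8.87 to 10.76 (median 9.49) in lard-fed conventional, 8.96 to 9.76 (median 9.24) in fish oil-fed germ-free and 9.63 to 10.87 (median 10.19) in lard-fed germ-free mice. Both diet pairs overlapped at the edges, and Gla rose 2.31-fold (1.21 ± 0.26, adjusted p = 0.000953) and 1.93-fold (0.95 ± 0.26, adjusted p = 0.00498). Without lard-fed conventional mice 5 and 6 its rise was 0.74 ± 0.21 (adjusted p = 0.0132), and with lard-fed germ-free mice 2, 4 and 5 left out the change was 0.85 ± 0.33 (adjusted p = 0.0589). Gusb, which acts on glucuronic acid, rose by 0.90 and 0.76, Man2b1, the acid mannosidase, by 0.77 and 0.83, and Glb1, the acid beta-galactosidase, by 0.70 and 0.76. Hexa rose by 0.55 and 0.51, Naglu by 0.40 and 0.52, and the sialidase Neu1 by 0.36 and 0.31. Gaa, which degrades glycogen, changed by 0.13 ± 0.06 in conventional mice (adjusted p = 0.102) and rose by 0.23 ± 0.06 in germ-free mice (adjusted p = 0.00413).

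Among 6 genes of lipid breakdown, 4 rose in conventional and 6 in germ-free mice. Lipa, lysosomal acid lipase, releases fatty acids and cholesterol from the lipid that macrophages take up. It ranged from 10.55 to 11.48 (median 10.95) in fish oil-fed conventional mice, 11.72 to 12.92 (median 12.03) in lard-fed conventional, 11.36 to 12.05 (median 11.73) in fish oil-fed germ-free and 12.47 to 13.12 (median 12.75) in lard-fed germ-free mice. Neither diet pair overlapped, and Lipa rose 2.40-fold (1.26 ± 0.18, adjusted p = 9.67e-06) and 2.07-fold (1.05 ± 0.18, adjusted p = 5.58e-05). Asah1, acid ceramidase, rose by 0.61 and 0.71, the lysosomal phospholipase Pla2g15 by 0.66 and 0.68, and Psap, the precursor of the saposins that help sphingolipid hydrolases, by 0.37 and 0.32. Galc, which cleaves galactosylceramide, changed by 0.50 ± 0.19 in conventional mice (adjusted p = 0.0501) and rose by 0.77 ± 0.19 in germ-free mice (adjusted p = 0.00234). Smpd1, acid sphingomyelinase, had a change of -0.14 ± 0.08 in conventional mice (adjusted p = 0.226) and rose by 0.22 ± 0.08 in germ-free mice (adjusted p = 0.033).

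Cholesterol freed by Lipa leaves the lysosome through Npc2 in the lumen and Npc1 in the membrane. Npc1 rose by 0.55 ± 0.15 in conventional mice (adjusted p = 0.0056), or 0.26 ± 0.10 without mice 5 and 6 (adjusted p = 0.0786), and by 0.61 ± 0.15 in germ-free mice (adjusted p = 0.00167). Npc2 rose by 0.32 and 0.24. Ppt1, the thioesterase that strips palmitate from proteins, rose by 0.54 and 0.50, and the lysosomal acid phosphatase Acp2 by 0.32 and 0.43. Cln3, a membrane protein lost in juvenile Batten disease, rose by 0.65 and 0.63. The cation channel Mcoln1 changed by 0.11 ± 0.06 in conventional mice (adjusted p = 0.187) and rose by 0.23 ± 0.06 in germ-free mice (adjusted p = 0.00373).

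Acp5, the tartrate-resistant acid phosphatase of osteoclasts and some macrophages, was the only one of the 44 genes that fell. It ranged from 11.95 to 12.54 (median 12.17) in fish oil-fed conventional mice, 11.57 to 11.88 (median 11.71) in lard-fed conventional, 11.87 to 12.17 (median 12.03) in fish oil-fed germ-free and 11.61 to 11.94 (median 11.74) in lard-fed germ-free mice. The conventional groups did not overlap. The change was -0.50 ± 0.09 in conventional mice (adjusted p = 0.000116) and -0.26 ± 0.09 in germ-free mice (adjusted p = 0.019). The germ-free call was lost when each array was centred on its median, and also with lard-fed germ-free mice 2, 4 and 5 left out, where the change was -0.21 ± 0.11 (adjusted p = 0.177). With the liver covariate it was -0.04 ± 0.15 (adjusted p = 0.855).

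Of the transcription factors, Tfeb rose by 0.35 ± 0.09 in conventional mice (adjusted p = 0.00496) and by 0.23 ± 0.09 in germ-free mice (adjusted p = 0.0406). Without lard-fed conventional mice 5 and 6 the conventional change was 0.22 ± 0.09 (adjusted p = 0.0748). The germ-free call was lost when quantile normalization was repeated, and with the liver covariate the change was 0.14 ± 0.16 (adjusted p = 0.527). Tfec, a relative found mainly in macrophages, had changes of 0.48 ± 0.26 and 0.14 ± 0.26 (adjusted p = 0.171 and 0.674). These are transcript levels, and the entry of TFEB into the nucleus, by which its activity is known to be set, was not measured.

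Of 6 genes of the vacuolar ATPase, 5 rose in both kinds of mice, and Atp6v0a1 and Atp6v1b2 had the largest rises of the 44 genes in germ-free mice. The pump has a membrane sector, to which Atp6v0a1 and Atp6v0d1 belong, and a cytosolic sector that splits ATP, with Atp6v1a, Atp6v1b2 and Atp6v1h. Atp6v0a1 ranged from 10.89 to 11.55 (median 11.13) in fish oil-fed conventional mice, 11.57 to 12.52 (median 11.87) in lard-fed conventional, 11.17 to 11.59 (median 11.31) in fish oil-fed germ-free and 12.41 to 12.80 (median 12.56) in lard-fed germ-free mice. The diets did not overlap, and the gene rose 1.79-fold (0.84 ± 0.13, adjusted p = 1.73e-05) and 2.38-fold (1.25 ± 0.13, adjusted p = 1.41e-07). Atp6v1b2 ranged from 10.80 to 11.31 (median 10.98), 11.24 to 12.57 (median 11.66), 11.19 to 11.38 (median 11.33) and 12.21 to 12.73 (median 12.41) in the same order of groups. Its conventional groups overlapped, and it rose by 0.82 ± 0.16 (adjusted p = 0.000212) and 1.14 ± 0.16 (adjusted p = 3.9e-06). Atp6v1a rose by 0.72 and 1.06, Atp6v0d1 by 0.34 and 0.65, and the accessory subunit Atp6ap1 by 0.31 and 0.53. Atp6v1h had changes of -0.05 ± 0.11 and 0.12 ± 0.11 (adjusted p = 0.754 and 0.36).

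**Figure D3:**
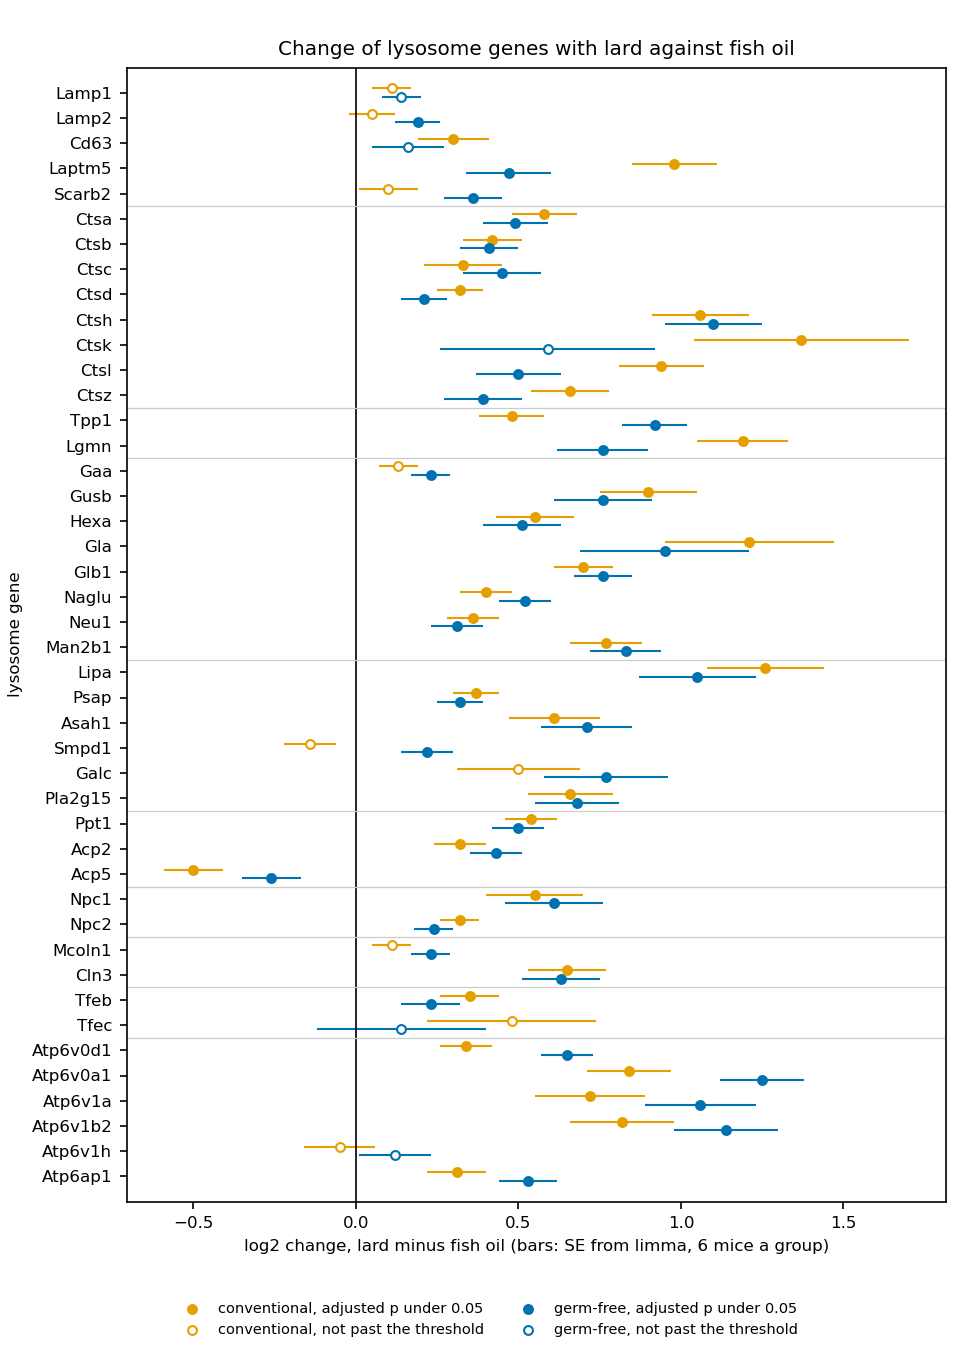
Change of each of the 44 lysosome genes with lard against fish oil (log2, horizontal axis) in conventional and germ-free mice, with SE bars; filled points passed an adjusted p of 0.05. Nearly all points lie right of 0, with 34 rises in conventional and 38 in germ-free mice, and Acp5 lies left of 0 in both.

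All 6 lard-fed mice lay above all 6 fish oil-fed mice for 21 of the 44 genes in conventional mice, against 8.01% of all genes, and for 29 in germ-free mice, against 13.4%. All 6 lay below for 1 gene, Acp5, in conventional mice, against 6.62% of all genes, and for 0 in germ-free mice, against 11.1%. The diet changes in conventional and germ-free mice, which share no mice, correlated across the 44 genes with r = 0.756, and across all genes with r = 0.734. With array medians made equal, all genes called in germ-free mice split into 4808 higher and 3313 lower, against 4072 and 5396 as deposited, and 39 of the 44 lysosome genes were then called, all higher. In a fit with the liver transcript mean as covariate, 16 of the 44 passed in germ-free mice, all of them higher, the median change was 0.43, and the 39 genes called without the covariate all kept their direction. The liver means of the lard-fed and fish oil-fed germ-free mice did not overlap, so that fit cannot well separate diet from liver transcripts. Over all genes it called 2501 higher and 3241 lower. Besides Laptm5, Acp5 and Tfeb, 5 called changes moved by more than 1.5 times in it: Ctsl to 0.28 ± 0.23, Ctsz to 0.14 ± 0.20 and Npc2 to 0.14 ± 0.11, which no longer passed, and Scarb2 to 0.63 ± 0.15 and Lamp2 to 0.33 ± 0.12, which did. Leaving out lard-fed germ-free mice 2, 4 and 5 gave 31 calls, all higher, with 2891 higher and 2387 lower over all genes. The calls of Lamp2, Ctsc, Ctsd, Ctsl, Ctsz, Gla, Smpd1 and Acp5 were then lost, and 0 of the 39 changes moved by more than 1.5 times.

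Markers of macrophages moved with the lysosome genes. Of 16 macrophage markers 13 rose with lard in conventional mice and 13 in germ-free mice, with 1 and 2 lower. Their mean was 9.65 to 10.08 and 9.72 to 10.33 in fish oil-fed conventional and germ-free mice, and 10.22 to 10.95 and 10.53 to 11.01 in the lard-fed groups, so that the diets did not overlap within either status. Adgre1, a gene used to recognise mouse macrophages, rose by 1.37 ± 0.21 (adjusted p = 2.32e-05) and 1.76 ± 0.21 (adjusted p = 9.51e-07), and Cd68 by 1.38 ± 0.17 (adjusted p = 2.24e-06) and 0.65 ± 0.17 (adjusted p = 0.00382). Of 9 markers of lipid-associated macrophages 8 rose in conventional and 4 in germ-free mice, among them the lipid receptor Trem2 by 2.01 ± 0.29 (adjusted p = 9.66e-06) and 1.14 ± 0.29 (adjusted p = 0.00241) and the integrin Itgax by 1.93 ± 0.31 (adjusted p = 3.81e-05) and 1.35 ± 0.31 (adjusted p = 0.00113). Of 11 mature adipocyte markers 10 fell in conventional and 8 in germ-free mice, with Adipoq down in both, at -0.46 ± 0.12 (adjusted p = 0.00522) and -0.47 ± 0.12 (adjusted p = 0.00288).

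**Figure D4:**
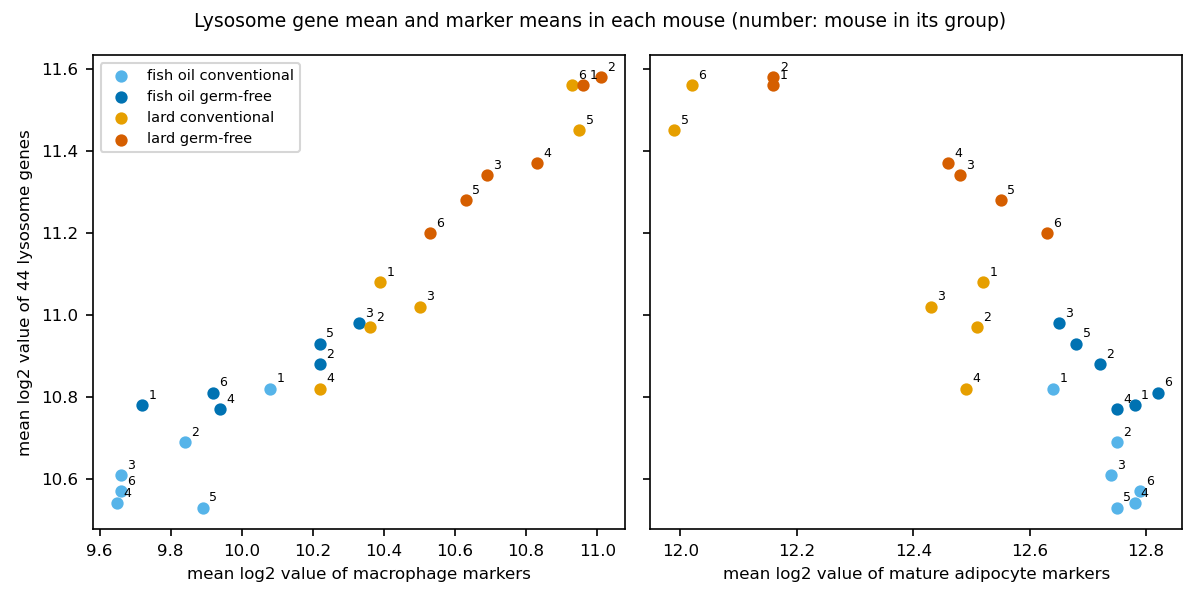
Mean log2 value of the 44 lysosome genes (vertical axis) in each mouse against the mean of 16 macrophage markers (left) and 11 mature adipocyte markers (right), with mice numbered within their group. Lard-fed conventional mice 5 and 6 and lard-fed germ-free mice 1 and 2 hold the highest lysosome means and the lowest adipocyte means.

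The mice with the highest lysosome means, lard-fed germ-free mice 1 and 2 (11.56 and 11.58) and lard-fed conventional mice 5 and 6 (11.45 and 11.56), also had macrophage means of 10.96, 11.01, 10.95 and 10.93 and adipocyte means of 12.16, 12.16, 11.99 and 12.02. These were the highest macrophage and the lowest adipocyte means of the 24 mice. Neutrophil markers were higher for 1 and lower for 3 of 9 in conventional mice and lower for 5 in germ-free mice, and 0 of 6 T cell markers passed limma's threshold in either. Of 8 mesothelial markers 7 fell in conventional and 5 in germ-free mice, and of 8 endothelial markers 1 rose in conventional and 3 fell in germ-free mice. Of 22 liver transcripts 2 rose in conventional mice and 21 fell in germ-free mice, with Alb at -3.78 ± 0.62 (adjusted p = 3.65e-05). Of 19 intestinal epithelium transcripts 0 passed limma's threshold in conventional mice, and 2, Zg16 at 2.36 ± 0.66 among them, rose and 1 fell in germ-free mice. Of 6 epididymis transcripts 1 fell in conventional and 2 in germ-free mice. Of all genes 15.4% rose and 15.6% fell in conventional mice, and 20.4% rose and 27.1% fell in germ-free mice. The part of the cell types named here in the lysosome result was not tested.

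Other genes of the lysosome, 124 measured of 134 listed, included rises and falls. Of all genes 15.4% rose and 15.6% fell in conventional mice, and 20.4% rose and 27.1% fell in germ-free mice. Of 9 other peptidases 5 rose and 0 fell in both kinds of mice, with Ctss, the cathepsin of antigen presenting cells, up by 1.23 ± 0.20 in conventional mice (adjusted p = 5.42e-05) and Prcp by 1.19 ± 0.14 and 1.38 ± 0.14 (adjusted p = 1.01e-06 and 1.5e-07). Of 16 other hydrolases 9 rose and 1 fell in conventional mice, and 11 rose and 0 fell in germ-free mice, with Manba up by 0.66 and 0.68 and Idua by 0.52 and 0.73. Of 25 other membrane proteins and transporters 13 rose and 1 fell in conventional mice, and 15 rose and 4 fell in germ-free mice. Slc15a3, a peptide and histidine carrier, rose by 1.34 in conventional mice, the sialic acid exporter Slc17a5 by 1.29 in germ-free mice, and Ostm1, the partner of the chloride transporter Clcn7, by 0.75 and 1.09.

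Of 18 other vacuolar ATPase subunits, 6 rose and 1 fell in conventional mice and 7 rose and 4 fell in germ-free mice. Atp6v0d2, a subunit known from osteoclasts and macrophages, rose by 2.03 ± 0.36 (adjusted p = 0.000105) and 1.31 ± 0.36 (adjusted p = 0.0044), more than any of the 44 genes, and Tcirg1, the osteoclast form of the a subunit, by 1.23 ± 0.17 (adjusted p = 8.32e-06) and 0.54 ± 0.17 (adjusted p = 0.0131). Of 12 genes that sort enzymes to the lysosome 6 rose and 2 fell in conventional mice, and 7 rose and 2 fell in germ-free mice. Igf2r, the large mannose 6-phosphate receptor, rose by 0.58 and 0.96, and Nagpa, which uncovers the mannose 6-phosphate tag, by 0.54 and 1.16, while the sorting receptor Sort1 had a change of -0.55 ± 0.09 in conventional mice (adjusted p = 3.71e-05). Of 19 genes of the TFEB family and mTORC1 signalling, 5 rose and 4 fell, and 7 rose and 4 fell. Mitf, a TFEB relative, rose by 0.59 and 0.78, and the Ragulator subunits Lamtor2 and Lamtor4 were lower, at -0.58 and -0.48 in conventional mice, and both at -0.67 in germ-free mice. Of 21 autophagy genes 3 rose and 3 fell, and 5 rose and 2 fell, with Uvrag up by 0.61 and 1.00 and Map1lc3a down at -0.50 and -0.56. These rises, 14.3% and 23.8% of the autophagy genes, lay near the 15.4% and 20.4% of all genes. Of 4 cystatins, the inhibitors of cathepsins, Cstb rose by 0.54 ± 0.11 in conventional mice (adjusted p = 0.000615), and 0 of 4 passed limma's threshold in germ-free mice.

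Between conventional and germ-free mice fewer lysosome genes passed the test, and those that did were higher in germ-free mice. With lard, 13 of the 44 were called, against 16.3% of all genes: 13 were lower in conventional mice and 0 higher, against 7.48% and 8.77% of all genes, and the median change was -0.25 beside 0.02 for all genes. With fish oil, 11 were called, against 12.4% of all genes: 11 were lower and 0 higher, against 5.21% and 7.15%, with a median change of -0.18 beside -0.01. By value, 40 of the 44 were higher in germ-free mice with lard and 34 with fish oil. Ctsa, Ctsb, Man2b1, Lipa and Psap passed with both diets, 8 genes with lard alone and 6 with fish oil alone. These comparisons share their mice with the diet comparisons.

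With lard, the genes lower in conventional mice included 5 of the 6 vacuolar ATPase genes. The changes were -0.63 ± 0.17 for Atp6v1a (adjusted p = 0.0114), -0.62 ± 0.16 for Atp6v1b2 (adjusted p = 0.00741) and -0.58 ± 0.13 for Atp6v0a1 (adjusted p = 0.00269), the 3 largest. Atp6v1a ranged from 10.66 to 11.78 (median 10.94) in lard-fed conventional and from 11.40 to 12.31 (median 11.66) in lard-fed germ-free mice. The overlap came from conventional mice 5 and 6, at 11.60 and 11.78, and the other 4 conventional mice lay at 11.06 or below. Atp6v0d1 (-0.28) and Atp6ap1 (-0.25) were also lower, as were Tpp1 (-0.54 ± 0.10, adjusted p = 0.00115), Lipa (-0.55), Npc1 (-0.46), Man2b1 (-0.45), Ctsa (-0.29), Ctsb (-0.28), Naglu (-0.28) and Psap (-0.24). The lard-fed groups overlapped for every one of the 44 genes, where 1.6% of all genes had all 6 conventional mice below and 2.55% all 6 above. The count rested on the mice and the fit used. It was 30, of which 29 lower and 1, Npc2, higher, without conventional mice 5 and 6 (over all genes 2574 were then higher and 2505 lower). It was 28 with array weights (over all genes 2634 and 2399) and 3 when only the lard-fed groups were fitted (over all genes 1302 and 897). Without germ-free mice 2, 4 and 5 it was 0, where only 83 and 94 of all genes were called higher and lower. All 13 genes then kept their direction, and 0 of the 13 changes moved by more than 1.5 times. Without conventional mice 5 and 6 the called changes of 5 genes moved by more than 1.5 times, to -0.86 for Lipa, -0.75 for Npc1, -0.48 for Ctsa, -0.44 for Ctsb and -0.42 for Atp6ap1.

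With fish oil, the genes lower in conventional mice included 6 of the 8 cathepsins and 0 of the 6 vacuolar ATPase genes. Ctsk had the largest change, -1.32 ± 0.33 (adjusted p = 0.00977), from 8.61 to 10.55 (median 9.57) in conventional and 10.17 to 11.45 (median 10.88) in germ-free mice, with an overlap through conventional mouse 1. Lipa was next, at -0.76 ± 0.18 (adjusted p = 0.00724), and then Ctsl, at -0.70 ± 0.13 (adjusted p = 0.00157). Ctsl ranged from 11.69 to 12.25 (median 11.79) in conventional and from 12.40 to 12.84 (median 12.53) in germ-free mice, with no overlap. Lgmn (-0.65), Laptm5 (-0.65), Ctsa (-0.38), Ctsz (-0.38), Man2b1 (-0.38), Psap (-0.29), Ctsb (-0.28) and Ctsd (-0.24) were the others. All 6 conventional mice lay below all 6 germ-free mice for 7 genes, Ctsa, Ctsb, Ctsd, Ctsl, Naglu, Psap and Npc1, against 3.22% of all genes, and above them for 0, against 3.81%.

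The count of genes called with fish oil moved with the scaling and with the liver covariate. Of 22 liver transcripts 21 were lower in conventional than in germ-free mice. With array medians made equal, 7 of the 44 were lower and 3, Ctsc, Smpd1 and Acp5, higher, while calls over all genes went from 1425 higher and 1039 lower to 2757 and 701. In the fit with the liver transcript mean as covariate, 3 of the 11 passed, Laptm5 at -0.94 ± 0.21 (adjusted p = 0.011), Ctsl at -0.91 ± 0.23 (adjusted p = 0.0207) and Lgmn at -0.87 ± 0.25 (adjusted p = 0.0347), and all 11 kept their direction. The liver means were 6.37 to 7.58 in conventional and 7.62 to 8.80 in germ-free mice, without overlap. That fit therefore cannot well separate status from liver transcripts. Over all genes it called 853 higher and 678 lower. Ctsz, at -0.62 ± 0.20 (adjusted p = 0.0547), and Man2b1, at -0.59 ± 0.19 (adjusted p = 0.0581), moved by more than 1.5 times in it and did not pass.

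**Figure D5:**
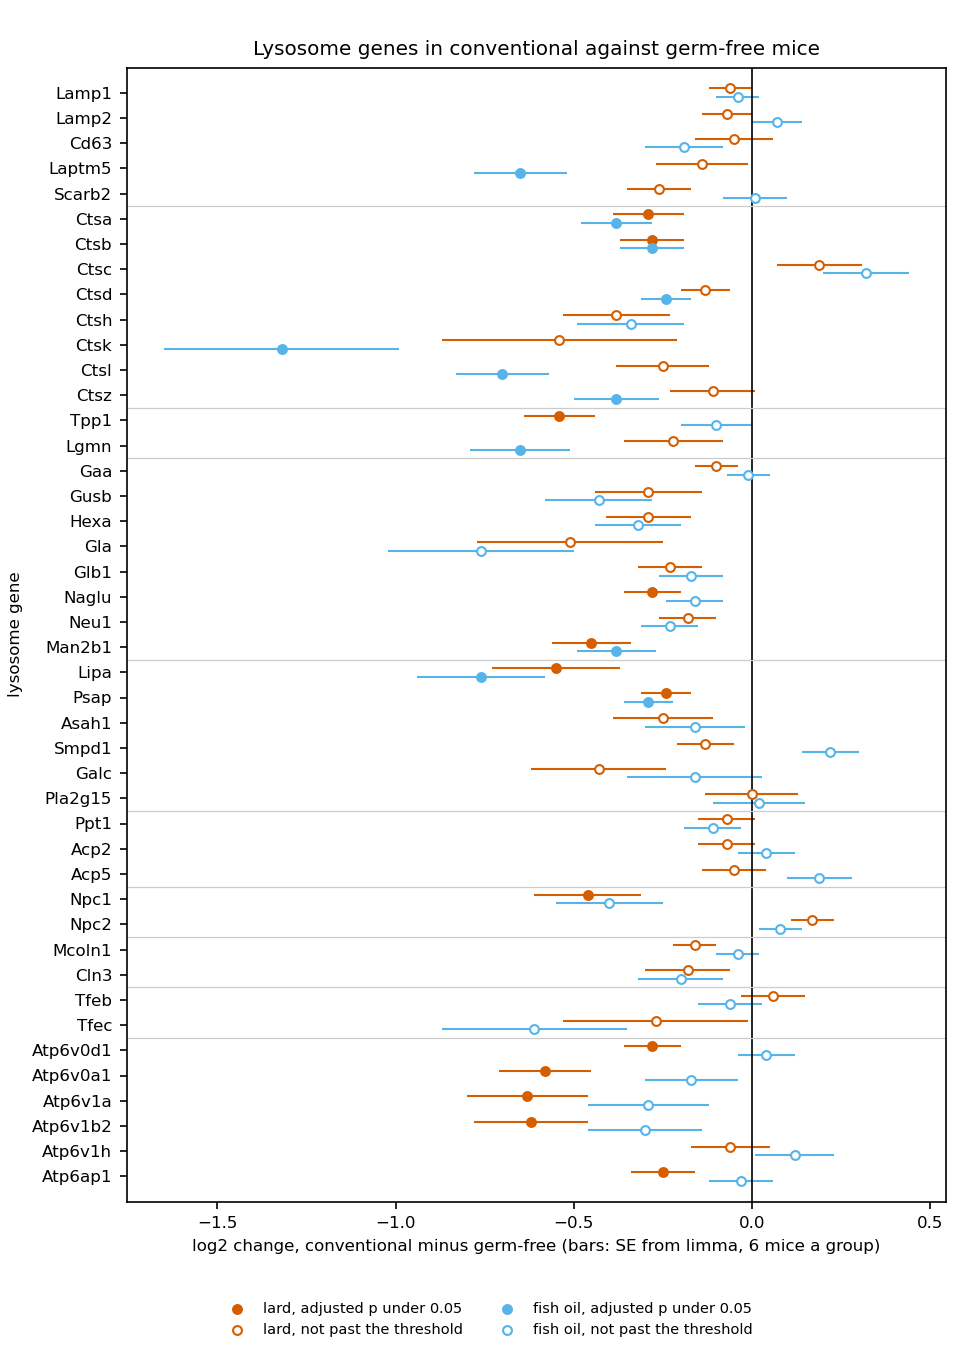
Change of each of the 44 lysosome genes between conventional and germ-free mice (log2, conventional minus germ-free, horizontal axis) with lard and with fish oil, with SE bars; filled points passed an adjusted p of 0.05. Of the vacuolar ATPase genes at the bottom 5 of 6 pass with lard and 0 with fish oil, 6 of 8 cathepsins pass with fish oil, and the difference between the 2 diets passed for 0 of the 44 genes.

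Fewer macrophage markers passed between the statuses than between the diets. With lard 0 of 16 were higher and 2 lower in conventional mice, against 8.77% and 7.48% of all genes. With fish oil 0 were higher and 4 lower, against 7.15% and 5.21% of all genes. Of 9 lipid-associated macrophage markers 1 was higher with lard, and 6 were lower with fish oil, where their mean was 9.78 to 11.14 in conventional and 11.11 to 11.58 in germ-free mice. Trem2 had a change of -1.39 ± 0.29 with fish oil (adjusted p = 0.00275) and -0.52 ± 0.29 with lard (adjusted p = 0.247), and Cd68 of -0.96 ± 0.17 (adjusted p = 0.000966) and -0.23 ± 0.17 (adjusted p = 0.419). Of 11 adipocyte markers 1 was lower with lard, Plin1 at -0.28 ± 0.07 (adjusted p = 0.00811), and 0 passed limma's threshold with fish oil. Of 9 neutrophil markers 2 were higher with lard, and of 6 T cell markers 1 was higher with each diet, in conventional mice. With fish oil 3 of 8 endothelial markers were lower in conventional mice, and with lard 2 of 19 intestinal epithelium transcripts were. Their part in the lysosome result was not tested.

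In the other lysosomal lists, genes called between the statuses went both ways. With lard 7.48% of all genes were lower in conventional mice and 8.77% higher. With lard, 10 of 25 membrane proteins and transporters were lower in conventional mice and 1 higher, among them Slc17a5 (-0.77 ± 0.17, adjusted p = 0.00353) and Clcn7 (-0.62 ± 0.14, adjusted p = 0.00469), and 4 of 9 other peptidases were lower and 1 higher. Of 18 other vacuolar ATPase subunits 2 were lower and 4 higher with lard, and of 16 hydrolases 1 was lower and 1 higher. Of 12 sorting genes 4 were lower and 3 higher, and of 19 genes of the TFEB family and mTORC1 signalling 5 and 4. Of 21 autophagy genes 5 were lower and 1 higher, and of 4 cystatins 0 passed. Lamtor2 and Lamtor4 were higher in conventional mice with lard, by 0.51 and 0.55, and with fish oil, by 0.42 and 0.35. With fish oil 5.21% of all genes were lower in conventional mice and 7.15% higher. Of 18 other vacuolar ATPase subunits 2 were lower, Atp6v0d2 (-1.78 ± 0.36, adjusted p = 0.00226) and Tcirg1 (-1.02 ± 0.17, adjusted p = 0.00058), and 0 higher. Of 9 other peptidases 1 was lower, Ctss (-1.07 ± 0.20, adjusted p = 0.00161), and 0 higher. Of 25 membrane proteins and transporters 5 were lower and 2 higher, and of 16 hydrolases 1 and 1. Of 12 sorting genes 1 was lower and 3 higher, and of 19 genes of the TFEB family and mTORC1 signalling 0 and 4. Of 21 autophagy genes and 4 cystatins 0 passed.

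Whether the diet change depended on bacterial status was tested as the diet change in conventional minus that in germ-free mice. It passed limma's threshold for 0 of the 44 genes, against 7.2% of all genes (2.81% higher and 4.38% lower), and 8 of the 44 had an unadjusted p under 0.05, against 22.2% of all genes. Positive values, a larger rise in conventional mice, were those of Laptm5 (0.51 ± 0.18, adjusted p = 0.0846), Ctsl (0.45 ± 0.19, adjusted p = 0.158) and Lgmn (0.43 ± 0.20, adjusted p = 0.212). Negative values, a larger rise in germ-free mice or, for Smpd1, a change of opposite sign, were those of Tpp1 (-0.43 ± 0.14, adjusted p = 0.0671), Atp6v0a1 (-0.41 ± 0.18, adjusted p = 0.174), Smpd1 (-0.35 ± 0.12, adjusted p = 0.0647), Atp6v0d1 (-0.31 ± 0.11, adjusted p = 0.0935) and Scarb2 (-0.26 ± 0.13, adjusted p = 0.222). Without lard-fed conventional mice 5 and 6, 8 genes passed, all negative, while 1199 of all genes were called higher and 1511 lower: Scarb2, Tpp1, Galc and 5 of the 6 vacuolar ATPase genes, with Atp6v0a1 at -0.63 ± 0.14 (adjusted p = 0.00501), Atp6v1b2 at -0.63 ± 0.14 (adjusted p = 0.00595) and Atp6ap1 at -0.39 ± 0.08 (adjusted p = 0.00264). With array medians made equal 3 passed, Tpp1, Smpd1 and Atp6v0d1, and calls over all genes went from 561 higher and 874 lower to 312 and 1688.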

How the data were processed

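RNA of 24 mice was hybridised to 1 Affymetrix array each, from 250 ng of total RNA per the labels' protocols. The deposited log2 values, for 35556 probe sets, come from RMA (per the submitters' processing notes). Its version and the scan dates were not given in the sources used here; no batch was tested. RMA makes the array distributions alike before any comparison, and the medians of the deposited values still differed slightly between groups. Probe sets were named from GEO's platform annotation with symbols updated by Entrez ID (GRCm38.p6): 21789 had 1 symbol, 1621 several and 12146 none, and 19938 genes remained, each with its probe set of highest mean. Within groups arrays correlated at 0.979 to 0.995, and 0 pairs were identical. The precision is set by the number of arrays. In the main fit the p-values set a difference of group means against the spread between mice, estimated in common over the 4 groups.

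A model of 4 group means over the 24 arrays was fitted in limma 3.58.1 (lmFit, then eBayes; R 4.3.3), two-sided, with Benjamini-Hochberg adjustment over 19938 genes in each of 5 comparisons. Every adjusted p is from this fit unless an alternative is named. The code was tested on simulated data. Tables and figures used python 3.11.15, numpy 2.4.6, pandas 2.3.3 and matplotlib 3.10.9.

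The 44 genes, the other lysosomal lists and the marker lists of macrophages, lipid-associated macrophages, neutrophils, T cells, mature adipocytes, endothelium, mesothelium, liver, intestinal epithelium and epididymis were chosen with earlier results of these data known, as were the alternatives. All 44 genes are accounted for, the leading ones of each comparison with values by group. Of other lysosomal lists at most 4 genes with the largest changes past the threshold were named for a comparison, and of the marker lists Adgre1, Cd68, Itgax, Trem2, Adipoq, Plin1, Alb and Zg16. Members of these lists outside the 19938 genes were not analysed here. No gene list was tested as a set.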

Additional observations from a re-analysis of the deposited data

Results flagged for a closer look

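Of 180 sets of 6 mice examined, 5 held a mouse far from the rest of its group by Dixon's criterion; chance alone gives about 1 in 20. Among fish oil-fed germ-free mice, Lamp2 in mouse 4 was 11.97 with the next value at 12.14, Cd63 in mouse 3 was 11.98 with the next at 11.69, Naglu in mouse 1 was 8.99 with the next at 8.84, and Smpd1 in mouse 3 was 10.67 with the next at 10.92. Among fish oil-fed conventional mice, Ctsd in mouse 5 was 12.91 with the next at 13.12.

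A diet change that differed between conventional and germ-free mice passed limma's threshold for 0 of the 44 genes. At an unadjusted p under 0.05 there were 8, against 22.2% of all genes. Genes of other lysosomal lists passed, where 2.81% of all genes were higher and 4.38% lower. Of 12 sorting genes 1 was higher and 4 lower, and of 25 membrane proteins and transporters 1 and 3. Of 18 vacuolar ATPase subunits 1 was higher and 1 lower, and of 16 hydrolases and 21 autophagy genes 1 each was lower. At most 4 genes of a list, those with the largest values, are named here. The values are the diet change in conventional minus that in germ-free mice, with limma's adjusted p. A larger value in conventional mice was found for Gga3 (0.56, adjusted p = 0.00526), the amino acid carrier Slc36a1 (0.53, adjusted p = 0.00891) and Atp6v1g2 (0.33, adjusted p = 0.0277). A smaller value in conventional mice was found for Hgsnat, which acetylates heparan sulfate (-0.80, adjusted p = 0.00162), Mfsd8 (-0.80, adjusted p = 0.000844), Nagpa (-0.62, adjusted p = 0.0343), Sort1 (-0.49, adjusted p = 0.0207) and Gnptab, which starts the mannose 6-phosphate tag (-0.41, adjusted p = 0.0168). It was also found for Atg13 (-0.36, adjusted p = 0.0159), Atp6v0a2 (-0.33, adjusted p = 0.00642), Clcn6 (-0.30, adjusted p = 0.0303) and Abca2 (-0.28, adjusted p = 0.044).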

How the results depend on the processing

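Over 11 alternatives, 0 of the called values of single genes changed sign. The count of the 44 genes called with lard in conventional mice stayed between 30 and 36 (35 as reported). Over all genes 2425 to 3173 were then higher and 2017 to 3769 lower. In germ-free mice the count stayed between 31 and 40 (39 as reported) except with the liver transcripts as a covariate (16). Over all genes 2891 to 4808 were then higher and 2387 to 5669 lower, and 2501 and 3241 with that covariate. In what follows, brackets give all genes called higher and lower. Between conventional and germ-free mice with lard the count of 13 (1749 and 1491) became 28 with array weights (2634 and 2399). It was 3 with only the groups compared (1302 and 897) and 30 without lard-fed conventional mice 5 and 6 (2574 and 2505). With lard-fed germ-free mice 2, 4 and 5 left out it was 0 (83 and 94). With fish oil the count of 11 (1425 and 1039) became 17 with array weights (1897 and 1425). It was 19 with only the groups compared (1687 and 1415), 21 without lard-fed conventional mice 5 and 6 (1783 and 1323) and 3 with the liver covariate (853 and 678). For the difference between diet changes the count of 0 (561 and 874) became 3 with median centring (312 and 1688). It was 2 with a filter on genes under the 40th percentile (462 and 1055) and 4 with array weights (1103 and 1423). Without lard-fed conventional mice 5 and 6 it was 8 (1199 and 1511), and with the liver covariate 2 (892 and 1262). Leaving out mice also leaves fewer mice to fit; other causes were not tested. The deviations of the mice gave no sign of a pairing by mouse number. Same-numbered mice of different groups had correlated deviations of -0.50 to 0.35 (median -0.002) in 36 pairs. For differently numbered mice these were -0.57 to 0.63 (median 0.001) in 180 pairs, and 2 of 24 arrays correlated best with their own number. With the number as a replicate block 33, 38, 10, 8 and 0 of the 44 genes were called in the 5 comparisons. In the same order, 2999, 4010, 1646, 1336 and 465 of all genes were higher and 3021, 5243, 1322, 958 and 666 lower.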
